A study of Mus musculus with 10 samples.

Results

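The proteasome subunit genes were followed in the somatic cells of fetal mouse ovaries, each sample from 1 female embryo on embryonic day 13.5. Members were all rows of the deposited expression table whose symbol begins with Psma to Psmg and a number, which gave 47 of 13578 genes. Of these, 46 encode subunits, regulators or assembly factors of the proteasome. The remaining match, Psmc3ip, encodes a partner of the meiotic recombinases that takes its name from an interaction with Psmc3, and is no proteasome subunit. Psma8, the alpha subunit of germ cells, and Psmb9, a subunit of the immunoproteasome, have no row in the table under these symbols.

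The embryos formed 2 groups of 5. In the withdrawn group, vitamin C was taken from the maternal diet for about the first 2 weeks of gestation. In the supplied group, the diet gave it at a physiological level. Both groups were Gulo-/- on a C57BL/6 background, so that all embryos lacked the enzyme that completes vitamin C synthesis, and there is no wild type group. The RNA came from the Oct4- fraction of sorted gonad cells, which is a mixture of somatic cell types. The comparison asks whether proteasome transcripts in this tissue differ when vitamin C is withheld.

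The proteasome degrades proteins that carry ubiquitin chains. Its core is a stack of 4 rings, the outer ones of alpha subunits, which gate the entrance, and the inner ones of beta subunits, of which Psmb5, Psmb6 and Psmb7 cut the substrate. A cap binds the core, and its ATPases (Psmc genes) unfold substrates while some of its Psmd subunits bind ubiquitin or remove it. In immune cells and after interferon, Psmb8, Psmb9 and Psmb10 take the places of Psmb5, Psmb6 and Psmb7, and the product is called the immunoproteasome. When proteasome activity is too low, the transcription factor Nfe2l1 is known to raise the subunit genes together through antioxidant response elements in their promoters.

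Values are regularised log2 (rlog) expression as the authors deposited them, with sample medians between 9.12 and 9.14. Depth cannot be recovered from them, and they come with no counting intervals. The rlog scale shrinks differences, most in weakly expressed genes. Changes are withdrawn minus supplied on this log2 scale, and ± is the SD over 5 embryos. The series' design text calls the replicates biological. Embryos 2 and 3 carry a common leading number in their titles, in both groups, and whether they are litter mates is not stated. Withdrawn embryos 2 and 3 and supplied embryo 4 held the most of the immediate early gene Fos, at 11.70 to 12.58, against 9.81 to 10.88 in the other 7. Of the markers of gonadal somatic cells, Wt1 was at 13.00 ± 0.0553 in withdrawn and 12.97 ± 0.0623 in supplied embryos and Nr5a1 at 11.33 ± 0.0890 in withdrawn and 11.37 ± 0.126 in supplied embryos. Of the 7 tested markers of these cells only Wt1 was above 0, with a median change of -0.041 and 0 at an unadjusted p under 0.05. Pregranulosa markers were split, with 5 of 10 above 0 and a median change of -0.0088. In that list 1 was higher at an unadjusted p under 0.05 and 0 passed the adjusted threshold. Among 9 stromal markers, 8 were higher in withdrawn embryos, 4 of them at an unadjusted p under 0.05 (2.45% of all genes were) and 0 past the adjusted threshold. Of 10 endothelial markers 2 were above 0, and Eng was at -0.39 (limma adjusted p = 0.210). Of 8 tested erythroid markers 1 was above 0. Of 12 germ cell genes 5 have a row, and Pou5f1, Ddx4 and Dazl have none under these symbols. Among the 5, with a median level of 4.78, 2 were above 0 and the median change was -0.031. Tdrd1 was at 5.77 ± 0.0456 in withdrawn and 5.96 ± 0.0930 in supplied embryos (-0.20, limma adjusted p = 0.167, unadjusted p under 0.05). Tfap2c was at 0.067 and Nanos3 at 0.028. The part of these cell types in the proteasome values was not tested.

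None of the proteasome genes differed between withdrawn and supplied embryos past the test. By limma with Benjamini-Hochberg adjustment over all 13578 genes, 0 of 47 members had an adjusted p under 0.05, where 0.0221% of all genes did. At an unadjusted p under 0.05 there were also 0 members, against 5.30% of all genes, with 2.45% of all genes higher in withdrawn embryos and 2.84% lower. In 0 of 47 members did the groups fail to overlap, against 0.810% of all genes. The changes of the members ran from -0.083 in Psmc3ip to 0.088 in Psmb4, with 22 above 0 and 25 below it, and 50.2% of all genes were above 0. Their median change was -0.0033, beside 0.00021 over all genes. Every 95% interval lay between -0.22, the lower end for Psmd4, and 0.21, the upper end for Psmb4. On the rlog scale that is between 0.862-fold and 1.16-fold, so a difference of this size or less is not shown to be absent.

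**Figure D1:**
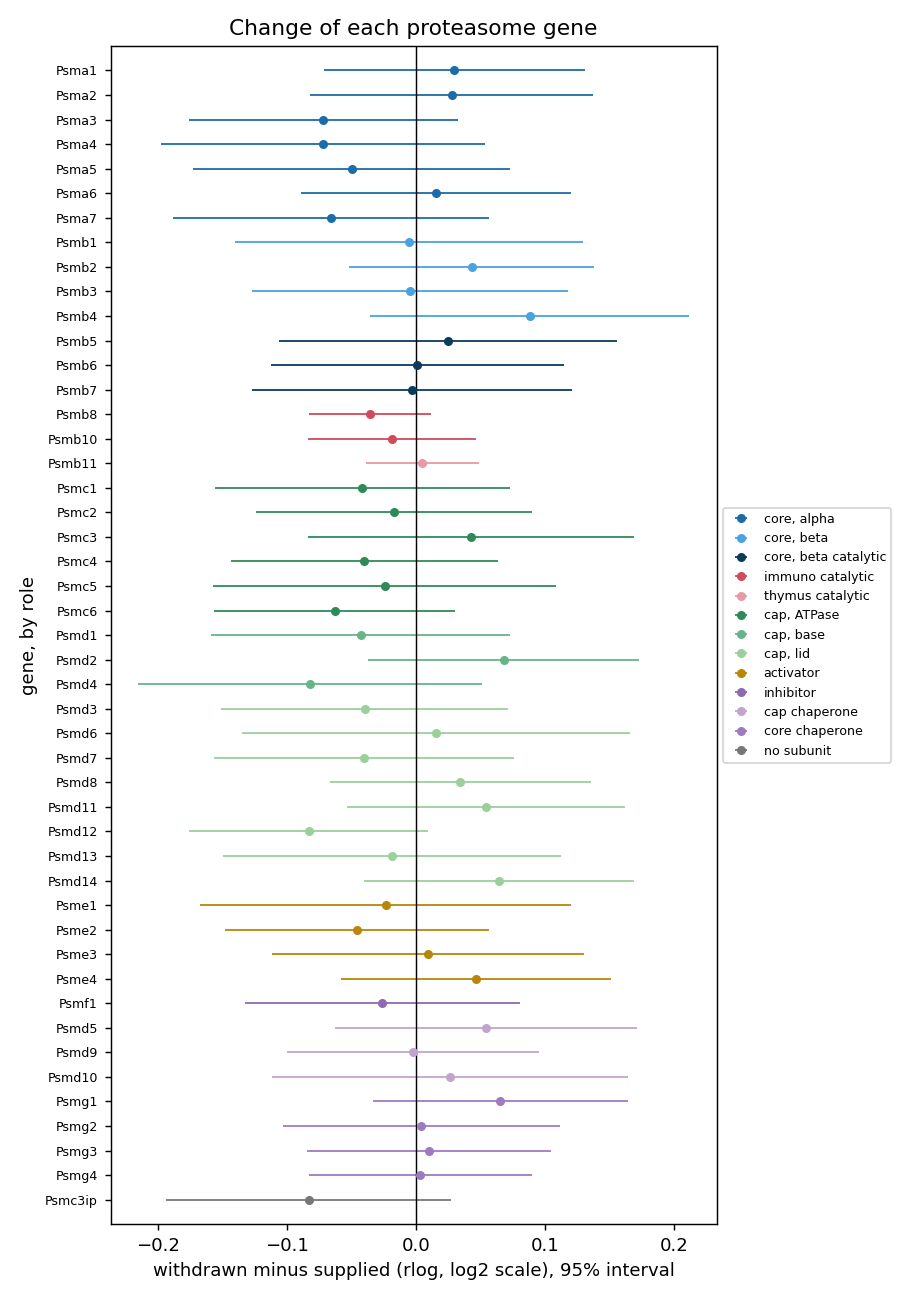
Change of each of the 47 proteasome genes, withdrawn minus supplied, in rlog units (log2), with points at the fitted difference, bars for the 95% interval (n = 5 embryos in each group) and colours for the role. All 47 intervals include 0, and the changes run from -0.083 to 0.088.

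The core subunits that cut proteins were at the same level in both groups to within the spread between embryos. Psmb5, which cuts after hydrophobic residues and is the main target of proteasome inhibitors, was at 9.09, 9.0, 8.93, 8.90 and 9.13 in withdrawn embryos 1 to 5, against 8.94, 9.05, 9.16, 8.94 and 8.85 in supplied embryos 1 to 5. The groups overlapped, and the change was 0.025 (95% interval -0.11 to 0.16, limma adjusted p = 0.996). Psmb6, which cuts after acidic residues, was at 10.62, 10.48, 10.60, 10.53 and 10.58 in withdrawn embryos and 10.59, 10.71, 10.61, 10.48 and 10.40 in supplied embryos. Its change of 0.0012 (95% interval -0.11 to 0.12, limma adjusted p = 0.999) was the smallest of the 47 in size. Psmb7, which cuts after basic residues, was at 10.07, 9.97, 9.90, 9.97 and 10.02 in withdrawn embryos, against 9.94, 10.11, 10.15, 9.87 and 9.87 in supplied embryos. The supplied embryos enclosed the withdrawn ones in this gene, with a SD of 0.133 among supplied and 0.0651 among withdrawn embryos, and the change was -0.0033 (95% interval -0.13 to 0.12, limma adjusted p = 0.999). Reads of all 3 can be shared with copies, since the reference annotation names 2 pseudogenes of Psmb6 and 1 each of Psmb5 and Psmb7. In addition, 12.1% of the exon bases of Psmb5 are shared with Mir686 on the same strand. Of those of Psmb7, 11.8% lie opposite Nek6.

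**Figure D2:**
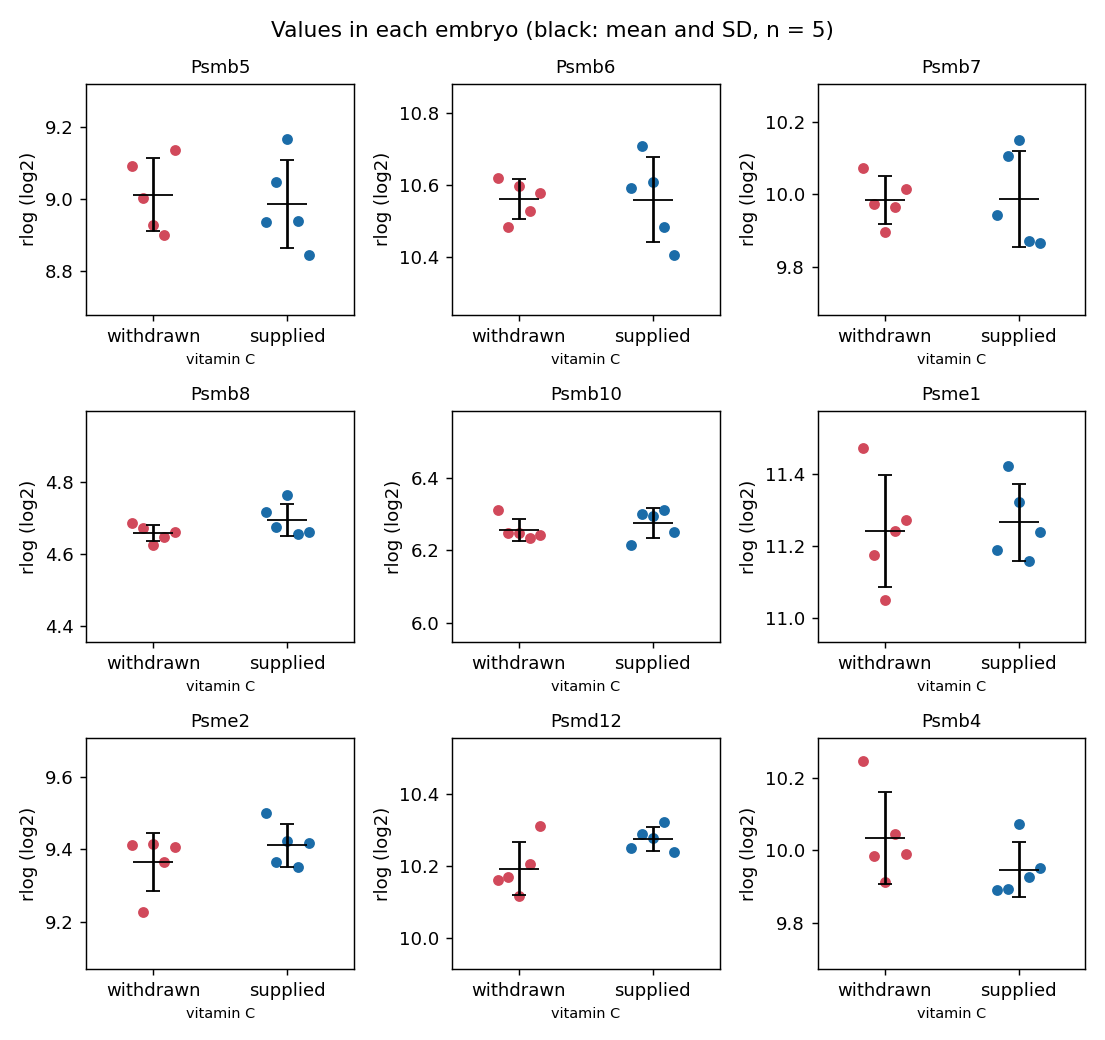
rlog values (log2 scale) of 9 proteasome genes in each embryo, withdrawn (red) and supplied (blue), with the mean and SD of each group (n = 5) in black and an axis of equal height in every panel. The groups overlap in all 9 genes, and withdrawn embryo 1 is the highest embryo in Psmb4 (10.25), Psme1 (11.47) and, among withdrawn embryos, Psmb10 (6.31).

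Of the 3 standard catalytic genes, Psmb5 and Psmb6 had a promoter in the RefSeq table and Psmb7 had none. Both promoters held the core letters of the antioxidant response element, at a share over all members given below. They are shown because this element is the one through which the subunit genes are known to be raised together. The stretches are the 250 bases before the start site on GRCm38.p6, 5′ to 3′ on the gene's strand, with matches to TGACNNNGC or to the ETS motif CCGGAAG, on either strand, in capitals. Psmb5 (chr14:54617996-54618245, minus strand) had 1 match that begins 47 bases before the start, and Psmb6 (chr11:70525107-70525356, plus strand) 1 that begins 9 bases before it. Psmd12 (chr11:107479278-107479527, plus strand) and Psmc6 (chr14:45329574-45329823, plus strand), cap genes with changes of -0.083 and -0.063, had 1 match to each of the 2 motifs.
Psmb5: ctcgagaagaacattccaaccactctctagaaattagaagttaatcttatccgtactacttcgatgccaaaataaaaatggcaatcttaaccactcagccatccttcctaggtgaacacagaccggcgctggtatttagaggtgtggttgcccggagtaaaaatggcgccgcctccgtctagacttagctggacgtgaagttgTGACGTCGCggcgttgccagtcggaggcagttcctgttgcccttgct
Psmb6: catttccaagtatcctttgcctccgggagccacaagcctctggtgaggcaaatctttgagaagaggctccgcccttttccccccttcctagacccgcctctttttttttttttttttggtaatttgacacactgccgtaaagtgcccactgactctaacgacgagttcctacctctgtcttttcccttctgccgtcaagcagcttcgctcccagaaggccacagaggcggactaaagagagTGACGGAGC
Psmd12: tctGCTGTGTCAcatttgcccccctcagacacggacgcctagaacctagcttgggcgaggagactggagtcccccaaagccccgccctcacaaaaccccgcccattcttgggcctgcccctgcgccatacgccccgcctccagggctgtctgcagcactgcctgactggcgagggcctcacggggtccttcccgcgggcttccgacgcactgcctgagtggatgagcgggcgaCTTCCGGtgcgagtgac
Psmc6: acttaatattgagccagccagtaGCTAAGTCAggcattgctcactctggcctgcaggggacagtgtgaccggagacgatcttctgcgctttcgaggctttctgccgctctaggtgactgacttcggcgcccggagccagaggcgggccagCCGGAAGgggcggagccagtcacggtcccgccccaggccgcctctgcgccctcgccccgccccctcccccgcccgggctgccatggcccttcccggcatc

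Of the 47 members, 40 were found in the promoter table, with 43 promoters, each from 250 bases before to 50 after the start. TGACNNNGC was in 6 of the 43 (14.0%), beside 12.4% of all 32851 promoters. CCGGAAG, the core letters bound by ETS factors, was in 16 (37.2%), beside 8.86% of all. The palindrome of nuclear respiratory factor 1, searched as GCGC, any base, then TGCGC, was in 7 (16.3%), beside 4.60% of all. The interferon-stimulated response element, searched as GAAA, any 2 bases, then GAAA, was in 5 (11.6%), of Psmb3, Psmd4, Psmd9, Psme1 and Psmg4, beside 3.44% of all, and not in these windows of Psmb8 or Psmb10. CCAAT was in 14 (32.6%), beside 37.4% of all. All motifs were searched on both strands, no test was made, and a match is a description of the letters only. Overlaps between motifs were not removed.

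Among the other core subunits, Psmb4 had the largest positive change of all members, and this was smaller without its highest embryo. Psmb4, a structural subunit of the beta ring, was at 10.25, 9.98, 9.91, 10.04 and 9.99 in withdrawn embryos, against 9.89, 9.89, 10.07, 9.93 and 9.95 in supplied embryos. Withdrawn embryo 1 was the highest and the other 4 withdrawn embryos lay within the range of the supplied ones. The change was 0.088 (SE 0.0585, limma adjusted p = 0.963), with 4 of 5 withdrawn embryos above the supplied mean. It was 0.035 without withdrawn embryo 1 and 0.12 without supplied embryo 3, the ends of the range with 1 embryo left out. Psmb1 was at -0.0056, Psmb3 at -0.0046 and Psmb2 at 0.043. In the alpha ring, 3 of 7 genes were above 0, from -0.072 in Psma4 to 0.030 in Psma1, with a median of -0.050. Psma3, another alpha subunit, was at 10.61, 10.53, 10.51, 10.67 and 10.67 in withdrawn embryos, against 10.76, 10.66, 10.74, 10.59 and 10.60 in supplied embryos. Its groups overlapped, and the change was -0.072 (SE 0.0493, limma adjusted p = 0.974). Psma7 was at -0.066 and Psma5 at -0.050, and Psma6 and Psma2 were at 0.015 and 0.028.

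Of the immunoproteasome genes, Psmb8 was near the bottom of the table in both groups and Psmb10 was higher. Psmb8, the counterpart of Psmb5, was at 4.69, 4.67, 4.63, 4.65 and 4.66 in withdrawn embryos and at 4.72, 4.67, 4.76, 4.66 and 4.66 in supplied embryos. All 5 withdrawn embryos lay below the supplied mean, yet the groups overlapped, and the change was -0.036 (95% interval -0.083 to 0.011, limma adjusted p = 0.963), or -0.019 without supplied embryo 3. Psmb10, the counterpart of Psmb7, was at 6.31, 6.25, 6.25, 6.23 and 6.24 in withdrawn embryos, against 6.21, 6.30, 6.30, 6.31 and 6.25 in supplied embryos. Its change was -0.019 (95% interval -0.084 to 0.046, limma adjusted p = 0.992) and lay between -0.034 and -0.0092 with 1 embryo left out. Psmb11, which replaces Psmb5 only in the thymic cortex and serves here as a gene that should be silent, was at 4.48 ± 0.037 in withdrawn and 4.47 ± 0.029 in supplied embryos. The mean rlog of Psmb8 was at percentile 1.44 of all 13578 genes, that of Psmb11 at 0.457 and that of Psmb10 at 12.5. At such levels the scale shrinks most, and differences cannot be read as fold changes. Of the exon bases of Psmb8, 14.7% lie opposite an antisense gene, and whether counting used the strand is not stated.

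Whether the induced subunits moved against the standard ones they replace was tested by the difference between them within each embryo. Psmb8 minus Psmb5 was -4.41, -4.33, -4.30, -4.25 and -4.47 in withdrawn embryos, against -4.22, -4.37, -4.40, -4.28 and -4.18 in supplied embryos. The change was -0.060, with 4 of 5 withdrawn embryos below the supplied mean (exact permutation test, two-sided, p = 0.325, adjusted p = 0.651 over 2 pairs), and it was -0.031 without withdrawn embryo 5 and -0.033 without supplied embryo 5. Psmb10 minus Psmb7 averaged -3.73 ± 0.0484 in withdrawn and -3.71 ± 0.125 in supplied embryos (exact permutation p = 0.817, adjusted p = 0.817). The difference between the groups was -0.015, with 4 of 5 withdrawn embryos below the supplied mean, and it took the other sign when supplied embryo 4 (0.023) or supplied embryo 5 (0.0094) was left out. The smallest p that 5 embryos against 5 allow is 0.00794. The SD of Psmb8 was 0.023 in withdrawn and 0.045 in supplied embryos, against 0.10 and 0.12 for Psmb5. That of Psmb10 was 0.031 and 0.041, against 0.065 and 0.13 for Psmb7. The spread of the differences was thus mostly that of the standard subunits. On a scale that shrinks weak genes, the test could hardly register a move of Psmb8 or Psmb10. No conclusion on their movement is drawn from it. The third pair could not be formed, as Psmb9 has no row under this symbol.

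Cap genes were split in direction, 6 of 17 above 0, with a median of -0.024. Psmd12, a lid subunit, had the smallest p of all members and was at 10.16, 10.17, 10.12, 10.21 and 10.31 in withdrawn embryos, against 10.25, 10.29, 10.28, 10.32 and 10.24 in supplied embryos. Withdrawn embryos 1 to 4 lay below all supplied embryos and withdrawn embryo 5 was among them. The difference was -0.083 (SE 0.0438, limma adjusted p = 0.956), with 4 of 5 withdrawn embryos below the supplied mean. Psmd4, a ubiquitin receptor of the cap, had nearly the same difference (-0.082) with a wider spread, at 11.68 ± 0.118 in withdrawn and 11.76 ± 0.119 in supplied embryos. Psmd2, the scaffold of the base, was at 12.02, 12.04, 11.93, 12.15 and 12.14 in withdrawn embryos, against 12.02, 12.05, 12.00, 11.91 and 11.96 in supplied embryos. The groups overlapped, and the change was 0.068 (SE 0.0496, limma adjusted p = 0.978), or 0.044 without withdrawn embryo 4. Psmd14, the enzyme that takes ubiquitin off the substrate, was at 9.55, 9.35, 9.43, 9.48 and 9.57 in withdrawn and 9.45, 9.48, 9.37, 9.39 and 9.37 in supplied embryos. These overlapped as well, with a difference of 0.064 (SE 0.0495, limma adjusted p = 0.978), which was 0.040 without withdrawn embryo 5 and 0.097 without withdrawn embryo 2. The lid as a whole had 4 of 8 genes above 0 and a median of -0.0014. Of the 6 ATPase genes, Psmc3 was at 0.043 and the other 5 were below 0, down to -0.063 in Psmc6. Exons of Psmc3 and Psmd13 lie opposite Slc39a13 (8.25%) and Sirt3 (10.1%).

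Alternative activators, which open the core without the cap, were on both sides of 0. Psme1 of the interferon-induced PA28 ring was at 11.47, 11.17, 11.05, 11.24 and 11.27 in withdrawn embryos, against 11.19, 11.42, 11.32, 11.16 and 11.24 in supplied embryos. Withdrawn embryos held both the highest and the lowest value, and the change was -0.023 (SE 0.0680, limma adjusted p = 0.998). Psme2, its partner in the ring, was at 9.41, 9.23, 9.41, 9.37 and 9.41 in withdrawn embryos and 9.50, 9.36, 9.42, 9.35 and 9.42 in supplied embryos. Its groups overlapped, with a difference of -0.046 (SE 0.0484, limma adjusted p = 0.991) that was -0.011 without withdrawn embryo 2 and -0.023 without supplied embryo 1. The nuclear activators Psme3 and Psme4 were at 0.0095 and 0.047, and the inhibitor Psmf1 at -0.026, with 8.99 ± 0.0087 in withdrawn and 9.01 ± 0.108 in supplied embryos. Assembly chaperones, which are not part of the finished particle, had 6 of 7 genes above 0 with a median of 0.010. Psmg1, a chaperone of the alpha ring, was at 8.21, 8.12, 8.26, 8.20 and 8.23 in withdrawn embryos, against 8.25, 8.16, 8.09, 8.14 and 8.05 in supplied embryos, and its groups overlapped. The change was 0.065 (SE 0.0466, limma adjusted p = 0.975). Psmd5 was at 0.054, Psmd10 at 0.026, Psmg3 at 0.010 and Psmd9 at -0.0023, though 25.5% of the exon bases of Psmd9 lie opposite a long noncoding gene. Psmc3ip, the gene that is no subunit, was at 8.43, 8.34, 8.38, 8.33 and 8.44 in withdrawn embryos, against 8.35, 8.37, 8.60, 8.49 and 8.52 in supplied embryos. All withdrawn embryos lay below the supplied mean but not below every supplied embryo (change -0.083, limma adjusted p = 0.963, or -0.049 without supplied embryo 3), and 21.2% of its exon bases lie opposite Mlx.

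Levels of different genes were compared per length, as rlog minus log2 of the exon length in kb. On this scale 41 of 47 members lay above the median of all genes (7.03), 29 lay above the upper quartile and 13 in the top 10%. The lid subunit Psmd7 was at 10.25 ± 0.092 in withdrawn and 10.29 ± 0.098 in supplied embryos, at percentile 96.0 of all genes. It headed the cap genes together with Psmc1 (10.23 ± 0.064 in withdrawn, 10.27 ± 0.114 in supplied) and Psmd4 (10.19 ± 0.118 in withdrawn, 10.27 ± 0.119 in supplied), which did not differ from it beyond their spread. Psma4 led the core at 10.05 ± 0.065 in withdrawn and 10.12 ± 0.139 in supplied embryos. Next in the core came Psmb6 (9.66 ± 0.055 in withdrawn, 9.65 ± 0.118 in supplied) and Psma5 (9.57 ± 0.095 in withdrawn, 9.62 ± 0.111 in supplied), which did not differ beyond their spread. Psmb3 (7.94 ± 0.092 in withdrawn, 7.94 ± 0.108 in supplied) and Psma2 (8.0 ± 0.081 in withdrawn, 7.97 ± 0.086 in supplied) were lowest and likewise not apart. The lowest cap gene was Psmd14 at 7.98 ± 0.092 in withdrawn and 7.92 ± 0.051 in supplied embryos. These orders depend on the length used. With the longest transcript in place of all exons, Psmd7 (10.79 over all embryos) and Psma4 (11.11) were again highest, but Psma2 (8.32) was lowest in the core and Psmc2 (8.61) in the cap.

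Among the catalytic genes the order per length was Psmb6, Psmb5, Psmb7, Psmb10 and Psmb8 in both groups. Psmb5 was at 9.16 ± 0.101 in withdrawn and 9.14 ± 0.122 in supplied embryos, and Psmb7 at 8.21 ± 0.065 in withdrawn and 8.21 ± 0.133 in supplied embryos. Psmb10 stood at 5.49 ± 0.031 in withdrawn and 5.51 ± 0.041 in supplied embryos, and Psmb8 at 2.90 ± 0.023 in withdrawn and 2.94 ± 0.045 in supplied embryos. The steps between neighbours in this order were larger than the SDs, which do not cover the choice of length or the shrinkage of weak genes such as Psmb8. With the longest transcript Psmb6 was at 10.61 and Psmb8 at 3.75 over all embryos, and the order was the same. Psme1, which interferon also induces, was at 10.10 ± 0.154 in withdrawn and 10.12 ± 0.106 in supplied embryos. Assembly chaperones ranged from Psmg4 (percentile 89.2 of all genes) to Psmd9 (percentile 30.1), with Psmg3 not apart from Psmd9. Exon lengths came from GENCODE M21, not from the annotation of the deposited table, and with the longest transcript in place of all exons the median of the members was 9.44, against 8.87.

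**Figure D3:**
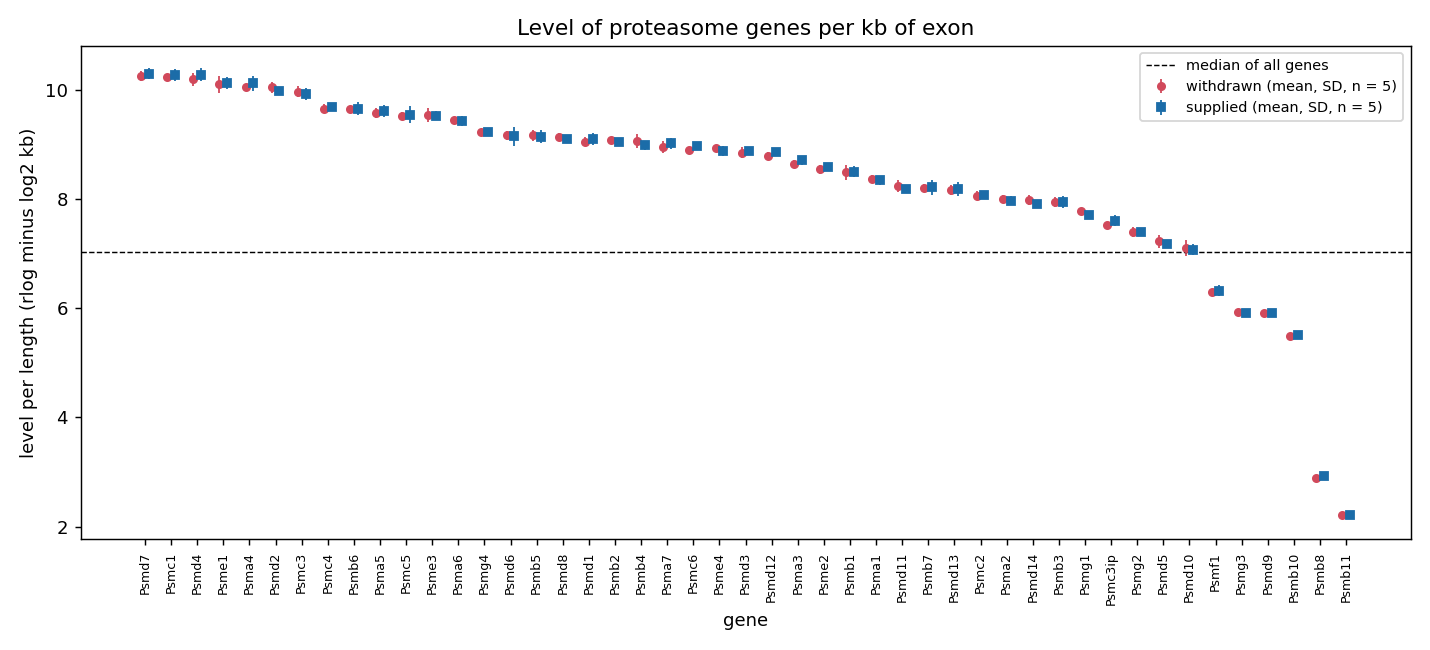
Level per length (rlog minus log2 of exon kb) of the 47 genes, ordered from high to low, with mean and SD in withdrawn (red circles) and supplied (blue squares) embryos, n = 5 each, and the median of all genes (7.03) as a dashed line. In each gene the 2 groups sit together, and Psmb10, Psmb8 and Psmb11 form the low end.

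Embryos within each group differed in the members as a whole, while the ranges of the 2 groups overlapped. Averaged over the 47 genes, embryos of the withdrawn group stood between -0.065 and 0.050 from the mean of all 10, and those of the supplied group between -0.065 and 0.060. The mean over the members was 9.80 ± 0.0501 in withdrawn and 9.80 ± 0.0573 in supplied embryos. In withdrawn embryos 1 and 5, 36 of 47 members each lay above their own mean over the 10 embryos, whereas in withdrawn embryos 2 and 3 this held for 10 each. Supplied embryos 2 and 3 had 36 and 38 members above their own mean, against 10 and 7 in supplied embryos 4 and 5. The other 2, withdrawn embryo 4 and supplied embryo 1, had 22 and 23. Over all genes, between 48.9% and 49.3% were above their own mean in each embryo.

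Both the core and the cap genes were low in supplied embryos 4 and 5 and withdrawn embryos 2 and 3. Mean deviations of the 14 core genes were 0.092, -0.057, -0.064, -0.018 and 0.038 in withdrawn embryos 1 to 5, and 0.012, 0.075, 0.081, -0.063 and -0.099 in supplied embryos 1 to 5. Those of the 17 cap genes were 0.030, -0.045, -0.10, 0.029 and 0.058 in withdrawn embryos, and 0.018, 0.10, 0.057, -0.059 and -0.085 in supplied embryos. In supplied embryo 5, 0 of 14 core genes were above their own mean, and in withdrawn embryo 3, 0 of 17 cap genes were, while all 17 were in supplied embryo 2. The 4 activators lay between -0.068 and 0.051 in withdrawn and between -0.050 and 0.056 in supplied embryos. Psmd6, a lid gene, had the largest residual SD of the members at 0.140, where the median was 0.0832 for the members and 0.0730 for all genes.

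Values of other gene groups in the same embryos stand beside these. The mean of 23 ribosomal protein genes deviated by 0.19 in withdrawn embryo 1 and by 0.0064 in withdrawn embryo 5, and by -0.027, -0.051 and -0.033 in withdrawn embryos 2, 3 and 4. In supplied embryos 1 to 5 it deviated by -0.00072, 0.054, 0.060, -0.071 and -0.13. Between the groups, 19 of the 23 were higher in withdrawn embryos, 3 at an unadjusted p under 0.05 and 0 past the adjusted threshold. Immediate early genes, which respond to stress and handling of cells, deviated by 0.35 and 1.01 in withdrawn embryos 2 and 3 and by 1.01 in supplied embryo 4, 3 of the 4 embryos with few proteasome genes above their mean. The fourth, supplied embryo 5, was at -0.066 for them, and the other 6 embryos lay between -0.69 and -0.27. The part of these differences in the proteasome values was not tested. Without the 3 libraries of highest Fos, 0 of 47 members passed, 28 were above 0 and the median change was 0.014. Averaged over the members, supplied embryos 2 and 3, which share a title number, were at 0.059 and 0.060. Withdrawn embryos 2 and 3, which also share one, were at -0.042 and -0.065. Embryos of different title numbers were about as close, such as supplied embryos 4 and 5 at -0.043 and -0.065. Withdrawn embryos 1 and 5 were at 0.050 and 0.039. With embryos of a shared title number averaged, 29 members were above 0, the median change was 0.027 and 0 passed.

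**Figure D4:**
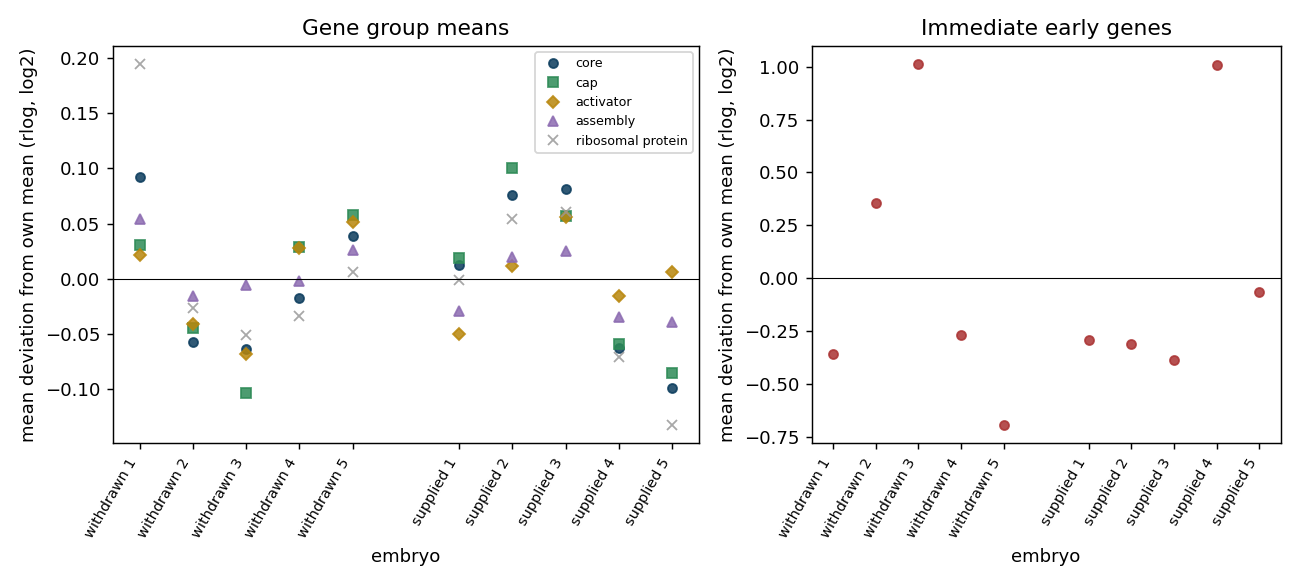
Mean deviation of gene groups from their own mean over the 10 embryos (rlog, log2 scale) for each embryo, withdrawn to the left and supplied to the right, with proteasome core (14 genes), cap (17), activators (4), assembly chaperones (7) and ribosomal proteins (23) in the left panel and 10 immediate early genes in the right panel on a wider axis. Core genes reach 0.092 in withdrawn embryo 1 and -0.099 in supplied embryo 5, and the ranges of the groups overlap.

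**Figure D5:**
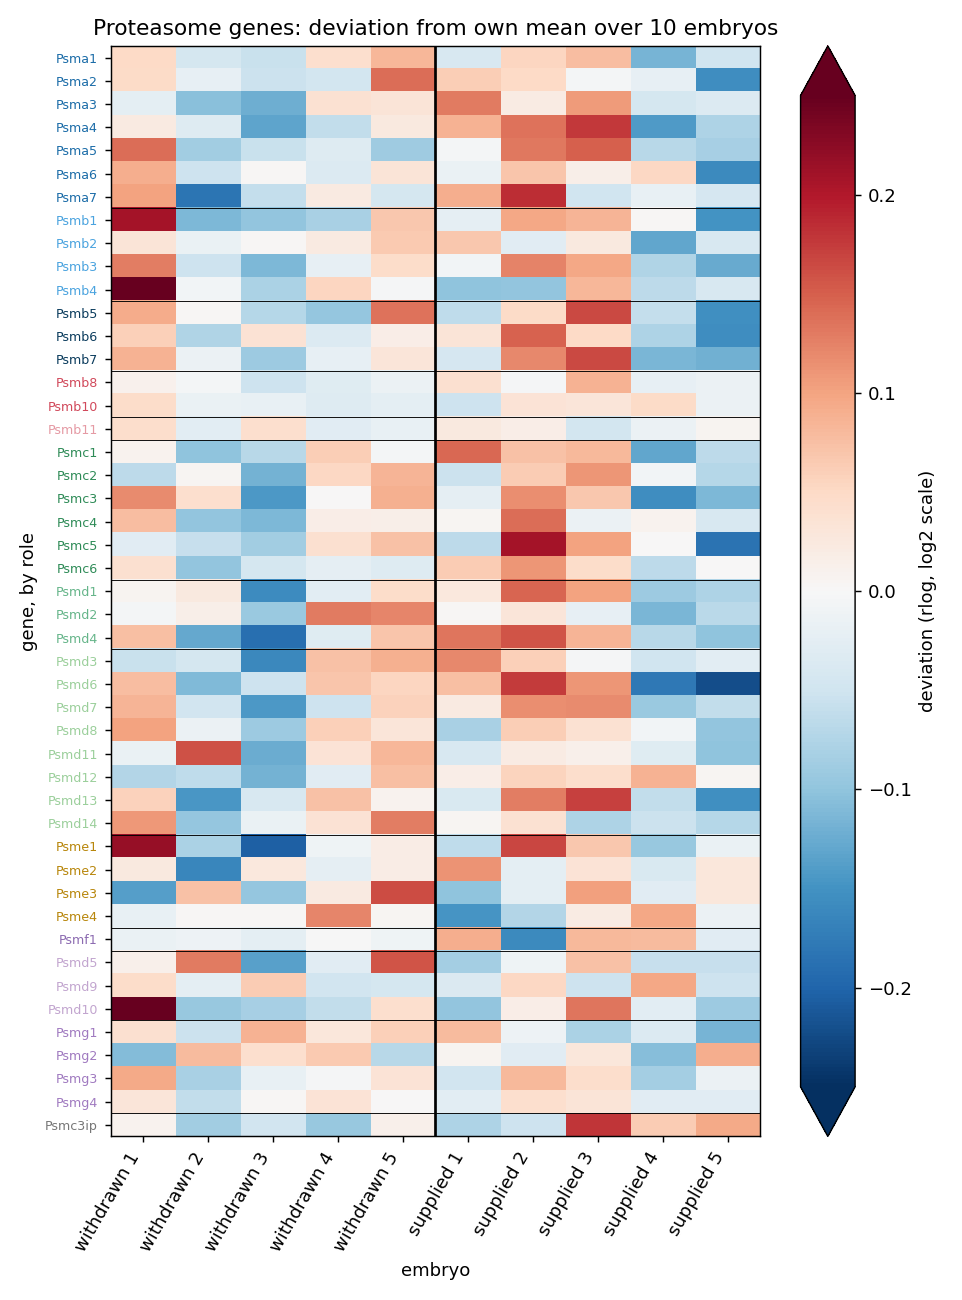
Deviation of each of the 47 genes from its own mean over 10 embryos (rlog, log2 scale, colours capped at 0.25 either way), genes by role and embryos by group, withdrawn left of the line and supplied right of it. In withdrawn embryos 2 and 3 and supplied embryos 4 and 5 at most 10 of 47 genes are above their own mean, against 36 or more in withdrawn embryos 1 and 5 and supplied embryos 2 and 3.

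Genes that work with the proteasome did not pass the test either. Of 12 tested genes of proteasome-bound factors, 0 passed by limma and 0 had an unadjusted p under 0.05, with a median change of 0.0096. The 3 of smallest p were Zfand5, which raises proteasome activity (-0.090), the deubiquitinase Uchl5 (-0.059) and Pomp, which matures the core (-0.052, at 10.01 ± 0.0179 in withdrawn and 10.06 ± 0.130 in supplied embryos). Among 10 genes that control proteasome transcription 5 were above 0, the median change was -1.73e-05, 0 passed and 0 had an unadjusted p under 0.05. Nfe2l1, the factor named above, was at 11.96 in withdrawn and 11.95 in supplied embryos (change 0.0052). Its protease Ddi2 was at 0.045 and its deglycosylase Ngly1 at -0.031, and the related Nfe2l3 at -0.022. Of 16 genes that supply ubiquitin or deliver substrates, 0 passed and the shuttle gene Ubqln4 had an unadjusted p under 0.05 (0.085, limma adjusted p = 0.931). Ufd1l, which helps to extract substrates, was at -0.090.

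Class I antigen presentation and interferon genes, the usual company of the immunoproteasome, had 0 of 18 tested genes past the test or at an unadjusted p under 0.05, and a median change of 0.014. Irf9, which carries interferon signals to DNA, was at 8.78 ± 0.0340 in withdrawn and 8.68 ± 0.0946 in supplied embryos (0.10, limma adjusted p = 0.931). H2-D1 was at -0.047 and Tapbpl at -0.039. B2m, the light chain of class I molecules, was at 9.48 in withdrawn and 9.46 in supplied embryos, and the peptide transporter Tap1 at 6.31 in withdrawn and 6.28 in supplied embryos. Leukocytes carry immunoproteasomes, so their markers stand beside Psmb8 and Psmb10. Of 15 macrophage markers 14 had a row, and their summed level, as log2, was 11.61 to 11.91 in withdrawn and 11.60 to 11.78 in supplied embryos. Of these 14 markers 6 were above 0, with a median change of -0.011. Lyz2 alone had an unadjusted p under 0.05 among them (-0.30, limma adjusted p = 0.900), and Mrc1 was at 0.10. The 8 lymphocyte markers have no row under these symbols. The part of leukocytes in the immunoproteasome values was not tested, and in such mixed RNA fewer cells of a type and less RNA per cell cannot be told apart.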

How the data were processed

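RNA sequencing of 10 samples was used, 5 with vitamin C withdrawn and 5 with it supplied, grouped by the treatment label. Libraries were made with a pico-input total RNA kit from 2 ng each, per the labels' protocols. The authors deposited regularised log2 values for 13578 genes. The submitters' processing notes name DESeq2 1.20.1, Trim Galore 0.4.0 and TopHat2 2.1.1, and build mm9. Annotation and counting are not given in the sources used here. Depth cannot be read from these values, and no count model was used.

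All genes with a mean of at least 3 (0 removed) were fitted with limma 3.58.1 in R 4.3.3, with a variance trend, no covariate and Benjamini-Hochberg adjustment at 0.05 over all genes. The fit was tested on simulated data. Differences between catalytic subunits were tested by exact permutation with scipy 1.17.1. p-values set a difference against the spread between these embryos only, which limma moderates with that of all genes. They take the embryos as independent. Members, role lists and tests were chosen with earlier results of these data known. Genes with all values given were the catalytic subunits, Psme1, Psme2 and the 4 members of smallest p in each direction. Other members were named by highest and lowest change or level in a role group, and listed genes by smallest p. The listed names Psmb9 and Psma8 have no row. Some further members and genes (Nfe2l1, Tap1, B2m, Psmd6) were named after their values were seen. Exon lengths and overlaps came from GENCODE M21 (GRCm38), matched by symbol for 98.7% of genes, and promoters from RefSeq on GRCm38.p6. The 5 motifs were chosen after the expression values were seen. Alternatives are given with their effect at the end. 1 listed gene that the naming rule picked is not reported here.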

Additional observations from a re-analysis of the deposited data

Results flagged for a closer look

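In 5 of 94 sets of values (47 genes in 2 groups of 5 embryos) a single embryo stood far from the other 4, its gap to the nearest being above 0.71 of the whole range. Chance gives this in about 5% of such sets. Psme4, the nuclear activator, was at 12.10 in withdrawn embryo 4 (nearest 11.98). Psme2 was at 9.23 in withdrawn embryo 2 (nearest 9.37). Psma5 was at 10.14 and Psmb10 at 6.31 in withdrawn embryo 1, where the nearest were 9.97 and 6.25. Psmc4, a cap ATPase, was at 10.92 in supplied embryo 2 (nearest 10.79).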

How the results depend on the processing

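No proteasome gene passed the test under any other setting tried (smallest limma adjusted p of a member 0.796, without supplied embryo 4), and the median change of the members ran from -0.034 to 0.027. At an unadjusted p under 0.05 there was 1 member, lower, without supplied embryo 1 (Psmc3ip, no subunit). Without withdrawn embryo 5 there was 1 other, also lower (Psmd12). The count over all genes, 3 in the fit reported, was 1 without a variance trend, with quantile normalization or with title numbers averaged, 5 with robust estimation or sample weights, and 0 to 4 with 1 embryo left out. The 3 settings chosen after seeing the data were leaving out the 3 libraries of highest Fos, leaving out Psmc3ip and keeping members with a mean of at least 7. The 14 members followed singly took the other sign in 21 of 279 values. Psmb6 was at -0.0025 with quantile normalization, -0.013 with sample weights and -0.0043 without the Fos libraries, and between -0.037 and 0.038 with 1 embryo left out. Psmb7 was at 0.0011, 0.0012 and 0.044 with quantile normalization, without the Fos libraries and with title numbers averaged, and between -0.034 and 0.037 with 1 embryo left out. Psme1 was at 0.035 with title numbers averaged and 0.036 without the Fos libraries, and between -0.081 and 0.025 with 1 embryo left out, as Psmb5 was between -0.010 and 0.069. Psmb10 minus Psmb7 ran from -0.051 to 0.023 likewise. Psme2 ran from -0.061 to -0.011, Psmb8 from -0.046 to -0.019, Psmc3ip from -0.11 to -0.049 and Psmb8 minus Psmb5 from -0.088 to -0.031, all below 0. The cause was not tested. The median level per length was 9.44 with the longest transcript. With the replicate number as a block, 2 genes and 0 members passed, and the pair differences had an adjusted p of 0.938. Same-numbered embryos did not pair (correlations of deviations from -0.364 to 0.172, 1 of 10 embryos best with its own number). The third catalytic pair was not run. Unknown depth and the shrunken scale limit what can be said of weak genes such as Psmb8.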
